A study of Mus musculus with 4 samples.

Results

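The E proteins (Tcf3, Tcf4 and Tcf12) and the Id proteins (Id1, Id2, Id3 and Id4) are 7 of the 21883 protein-coding mouse genes whose chromatin could be read from these peak lists. They were taken by name. For each, the peaks inside the mm10 gene interval and 2 kb on each side (the gene region) were collected, and then the peaks in the next 50 kb on each side (the flanks). Peaks of all lists were merged where they overlapped or touched, which gave 161 merged regions in the 7 gene regions and 109 in the flanks, of 229743 in the whole series.

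Open chromatin was mapped by Omni-ATAC-seq, an assay in which Tn5 transposase cuts accessible DNA, in oligodendrocytes (OLs) and in their progenitor cells (OPCs), both made from mouse epiblast stem cells. Each group held 2 libraries, the lines being 129O1 and EpiSC5, and 50000 cells went into each library. OPC medium held 20 ng/ml bFGF, 20 ng/ml PDGFA and no SHH, and the OPCs were sorted for CD140a and NG2 after passage 4. The OLs were sorted for O1, and the labels give neither their medium nor their time in differentiation. The lines came from the strains 129SvEv and 129S1/SvImJ, and which line belongs to which strain is not assigned here. All cells therefore had a stem cell origin in common and had passed through culture. Whether the 2 libraries of a group came from separate differentiations is not stated, so the p-values measure only the spread between these libraries.

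E proteins are class I basic helix-loop-helix (bHLH) transcription factors that bind E-boxes as dimers, often with a tissue-restricted class II partner such as Olig2. Id proteins have the helix-loop-helix but no basic region, so they take E proteins and some class II factors into dimers that do not bind DNA. In the oligodendrocyte lineage Id2 and Id4 are known as inhibitors of differentiation that act downstream of BMP signals, and TCF4 is known as a dimer partner of OLIG2. Tcf4 here is the bHLH gene, also called E2-2, and not the Wnt effector Tcf7l2.

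RefSeq promoter windows (GRCm38.p6), of 250 bases before and 50 after a transcript start, matched 5 of the 7 members. The stretches upstream of the gene interval are shown for Tcf12, whose gene region changed, and for Id2, Id3 and Id4 because their starts had peaks in all 4 libraries. Each is written 5′ to 3′ on the strand of the gene. Capitals mark an E-box (CANNTG) or a GC box (GGGCGG or CCGCCC), each searched on both strands, and overlapping GC boxes run together. The Tcf12 stretch is chr9:72111894-72112069, that of Id2 chr12:25096093-25096342 (both on the minus strand), that of Id3 chr4:136143572-136143821 and that of Id4 chr13:48260866-48261115 (both on the plus strand).
Tcf12: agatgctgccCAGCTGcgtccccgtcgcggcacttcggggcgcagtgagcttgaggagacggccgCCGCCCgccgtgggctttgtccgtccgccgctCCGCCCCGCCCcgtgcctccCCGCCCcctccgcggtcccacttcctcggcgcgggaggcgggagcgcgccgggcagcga
Id2: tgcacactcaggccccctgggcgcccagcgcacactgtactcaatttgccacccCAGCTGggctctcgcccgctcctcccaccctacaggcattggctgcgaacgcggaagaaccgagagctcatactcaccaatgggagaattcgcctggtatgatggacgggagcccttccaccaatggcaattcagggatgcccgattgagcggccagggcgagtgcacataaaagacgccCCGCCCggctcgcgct
Id3: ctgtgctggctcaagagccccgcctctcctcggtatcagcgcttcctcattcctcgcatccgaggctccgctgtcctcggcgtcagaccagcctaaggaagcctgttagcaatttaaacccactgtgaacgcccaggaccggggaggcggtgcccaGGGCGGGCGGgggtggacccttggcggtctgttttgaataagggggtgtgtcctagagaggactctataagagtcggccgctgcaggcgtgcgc
Id4: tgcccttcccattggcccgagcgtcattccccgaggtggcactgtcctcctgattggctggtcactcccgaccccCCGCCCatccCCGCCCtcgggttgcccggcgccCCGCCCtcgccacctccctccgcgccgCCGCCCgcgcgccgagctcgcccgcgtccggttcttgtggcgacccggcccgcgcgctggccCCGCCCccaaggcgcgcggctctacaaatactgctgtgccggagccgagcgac

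The Tcf12 stretch, cut to 176 bases at the gene interval, held 1 E-box and 4 GC boxes, and the E-box was CAGCTG. The whole 250 bases before that start held the same 1 E-box and 4 GC boxes. Id2 also held CAGCTG as its only E-box, with 1 GC box. Id3 held 2 GC boxes and Id4 held 5, and neither held an E-box in these bases. Among all 32851 RefSeq promoter windows, 66.2% held a CANNTG, 13.0% held CAGCTG and 32.7% held a GC box. The 250 bases upstream of the Tcf12 start shown here and of the Id2 and Id4 starts were covered by peaks over their whole length in all 4 libraries. Those of Id3 were covered over 189 bases in 129O1 OPCs, 185 in EpiSC5 OPCs, 181 in 129O1 OLs and 177 in EpiSC5 OLs, and paired values below follow that order of lines. Those of Tcf3, whose sequence lies inside its gene interval and is not printed, were covered over 210 and 250 bases in OPCs and 250 and 216 in OLs. A stretch covered over its whole length cannot show a difference in width, and Id1 and Tcf4 were not measured in this way.

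Over the gene regions, Tcf12 gained covered sequence in OLs and Id1 lost it. Both calls came from limma on log2(scaled covered bp + 200), with a Benjamini-Hochberg adjusted p under 0.05 over the 14540 gene regions with a mean of at least 500 covered bp. Scaling set every library to the same total covered sequence. All 7 members passed that filter, and 2 of the 7 were called, beside 19.6% of all gene regions tested (11.0% higher in OLs, 8.63% lower). Of all calls 56.1% were higher in OLs, and 33.8% with no scaling. The median log2 difference over the 7 members was 0.06, and over all gene regions tested it was -0.02. By group, the median was 0.08 for the 3 E proteins and -0.11 for the 4 Id genes. Both OL libraries lay above both OPC libraries for 1 member (27.4% of all gene regions) and below both for 2 members, Tcf3 and Id1 (28.1%). Bulk libraries were used, so fewer cells with an open site and a weaker signal per cell cannot be told apart.

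**Figure D1:**
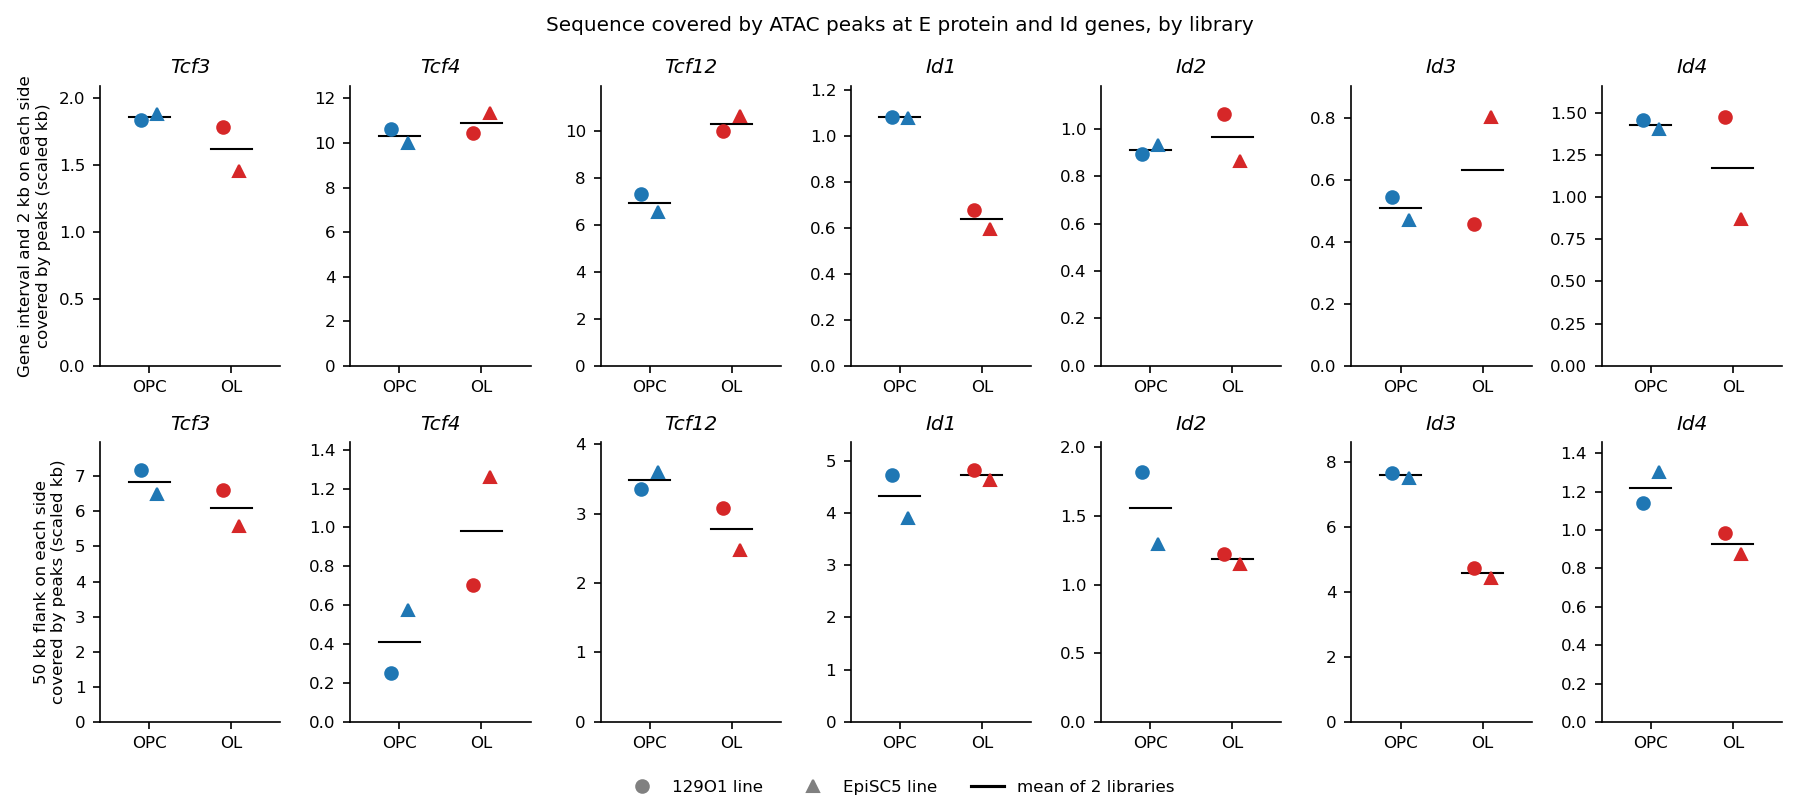
Sequence covered by peaks, in scaled kb, in the gene region (upper row) and in the flanks (lower row) of each member. Each point is 1 library (circles 129O1, triangles EpiSC5, blue OPC, red OL), each bar is the mean of 2 libraries, and every vertical axis starts at 0 with its own range. The OL points stand clear above the OPC points for the Tcf12 gene region and clear below for the Id1 gene region and the Id3 flanks.

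Tcf12 (also called HEB) encodes the E protein that lies at chr9:71844252-72111893, a gene interval of 267.6 kb. Peaks covered 7.31 (129O1) and 6.54 (EpiSC5) scaled kb of its gene region in OPCs, and 10.0 and 10.6 scaled kb in OLs. Both OL libraries were above both OPC libraries. The means were 6.92 ± 0.544 scaled kb in OPCs and 10.3 ± 0.454 in OLs (SD, n = 2 each). The difference was 0.56 ± 0.12 (SE) on the log2(bp + 200) scale, 1.48-fold, with a limma adjusted p of 0.00358. It was 0.44 in 129O1 and 0.69 in EpiSC5. The number of peaks was 32 and 29 in OPCs and 40 and 51 in OLs. The call was kept without each library in turn, with adjusted p between 0.00046 and 0.0392. Each of those fits leaves 1 group with a single library, which is assumed to vary like the other group. The call was lost when peaks were counted instead of measured by width (0.43, adjusted p = 0.0849, a test that called none of the members and 6.19% of all gene regions) and when each peak was set to 200 bp around its summit (0.43, adjusted p = 0.0755). It was also lost with no scaling (0.45, adjusted p = 0.159), under which the median over all gene regions moved from -0.02 to -0.13.

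The added sequence of Tcf12 came mostly from regions away from its start. Of 66 merged regions in the gene region, 13 had a peak in both OL libraries and in no OPC library (OL-only), 6 had one in both OPC libraries and in no OL library (OPC-only), 15 were shared by all 4 libraries and 32 had another pattern. The OL-only share was 19.7%, beside 16.8% over all protein-coding gene regions, and the OPC-only share was 9.09%, beside 8.84%. OL-only regions went from 0 to a mean of 2.66 scaled kb in OLs, OPC-only regions from 1.21 scaled kb in OPCs to 0, and shared regions from 4.72 to 5.18. Regions of other patterns went from 0.991 to 2.49 scaled kb, and 16 of those 32 had a peak in the EpiSC5 OL library alone. That library had the longest list of the series, with 152595 peaks, and the part of list length in these regions was not tested. With 2 libraries a group the smallest permutation p is 0.333, so class counts are given as a description, and a region without a peak is one where none passed the caller's threshold.

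The region over the Tcf12 start, chr9:72110610-72112228, was 1567 and 1619 bp wide in OPCs and 1497 and 1473 bp in OLs. Widths of single regions are given in unscaled bp. A second RefSeq start inside the gene, at position 71896096 of the minus strand, had a smaller region at chr9:71896004-71896197, which covered 158 and 194 bp in OPCs, against 166 and 169 bp in OLs. The 250 bases before that internal start were covered over 79 and 101 bases in OPCs and 83 and 85 in OLs. They were 34.8% G or C with 0 CpG, while those before the start shown above were 76.8% G or C with 38 CpG. The largest OL-only region by covered sequence, chr9:71953162-71953522, lay 158.5 kb into the gene and covered 275 and 361 bp in the OL libraries. The OPC-only counterpart, chr9:72076230-72076787, lay 35.31 kb into the gene and covered 378 and 433 bp in the OPC libraries. Among the 15 shared regions, 5 were wider after scaling in both OL libraries than in both OPC libraries and 1 was narrower, but 4 were wider and 6 narrower in unscaled bp. Over all shared regions in gene regions, 17.3% were wider and 30.3% narrower after scaling, and 13.1% and 51.3% in unscaled bp. The region chr9:71990432-71990977, picked after its values were seen, covered 192 and 180 bp in OPCs, against 509 and 515 bp in OLs. The gene region thus held OL-only and OPC-only regions side by side.

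**Figure D2:**
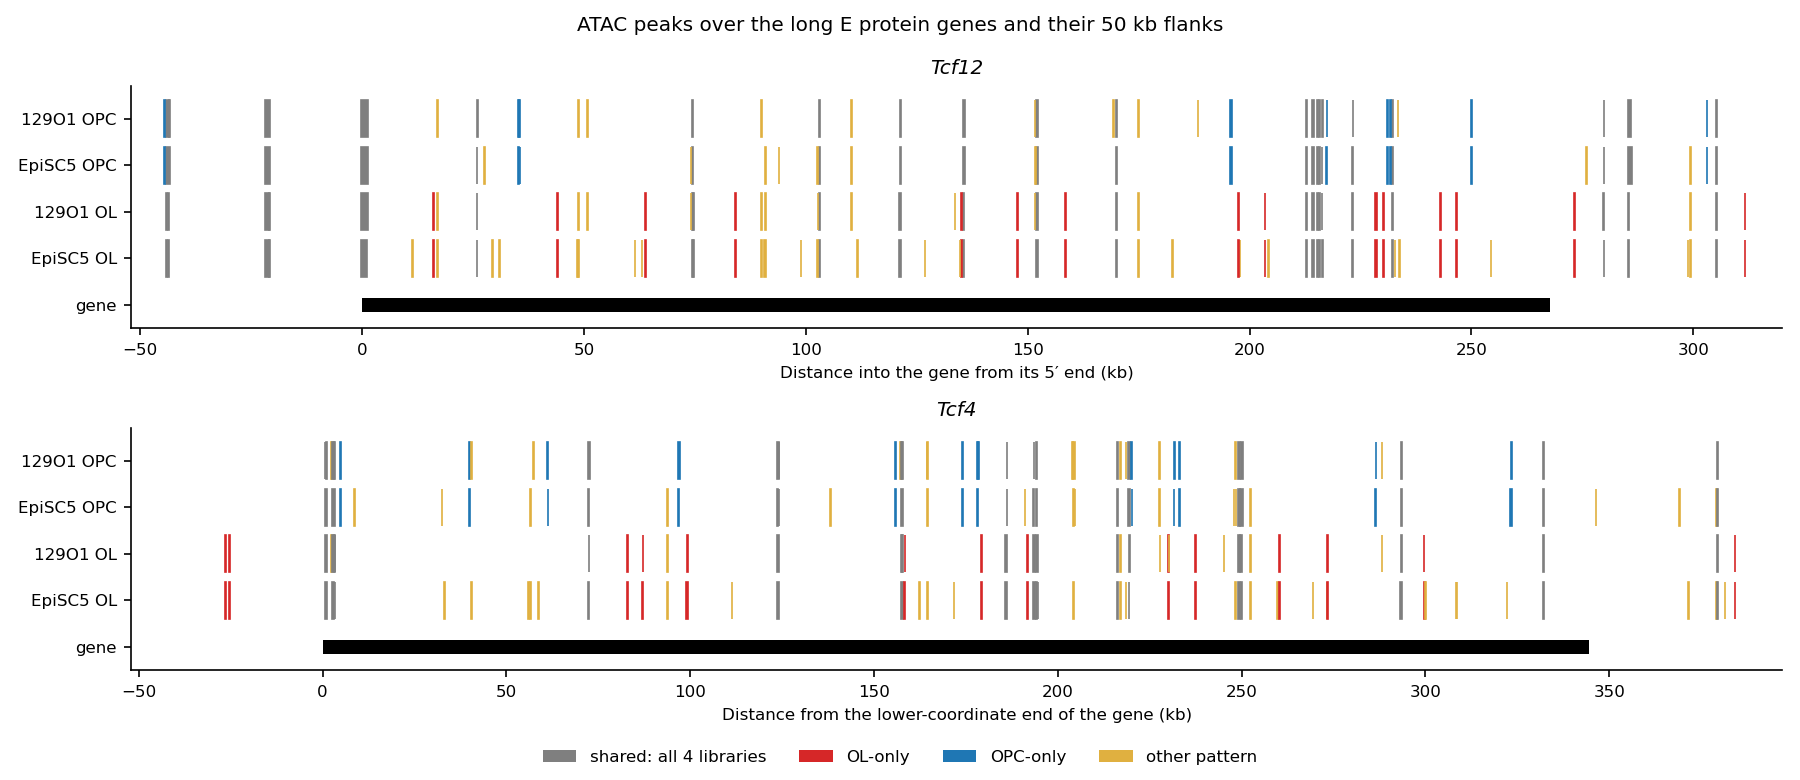
Peaks of each library over Tcf12 and Tcf4 and their flanks, by distance in kb from a gene end (Tcf12 runs from its 5′ end at 0). Each box is 1 peak, drawn to scale with a thin outline and coloured by the class of its merged region, and the black bar is the gene. Tcf12 held 13 OL-only (red) and 6 OPC-only (blue) regions in its gene region and Tcf4 held 11 and 12, and in both genes they were interspersed along the gene.

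Tcf4, the longest member at 344.5 kb (chr18:69343429-69687967), had no called difference in its total, and it held regions with peaks in 1 group only. Peaks covered 10.6 and 10.0 scaled kb in OPCs, and 10.5 and 11.3 scaled kb in OLs. The groups overlapped. The difference was 0.08 ± 0.12 (SE) on the log2(bp + 200) scale, with a limma adjusted p of 0.738, and its sign differed between 129O1 (-0.02) and EpiSC5 (0.18). Its 74 merged regions were 11 OL-only, 12 OPC-only, 14 shared and 37 of other patterns. Of those 37, 13 had a peak in the EpiSC5 OL library alone and 2 in the 129O1 OL library alone. Another 6 had a peak in the EpiSC5 OPC library alone and 4 in the 129O1 OPC library alone. The OPC-only share of 16.2% stood beside the 8.84% of all gene regions and the OL-only share of 14.9% beside 16.8%. The gene is also long, and 98.4% of genes had fewer OL-only regions and 99.7% had fewer OPC-only regions.

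In scaled kb, the OL-only and the OPC-only regions of Tcf4 summed to like sizes. OL-only regions gave 2.36 scaled kb in OLs and OPC-only regions 2.73 in OPCs. Shared regions went from 5.46 to 6.50 scaled kb, with 7 of the 14 wider in both OL libraries and 3 narrower after scaling, and 6 and 4 in unscaled bp. The shared region with the most covered sequence, chr18:69346061-69346926, lay 3.07 kb inside the lower-coordinate end and had 809 and 833 bp in OPCs, against 661 and 579 bp in OLs. The largest OL-only region, chr18:69442411-69442831, covered 399 bp in each OL library. The largest OPC-only region, chr18:69666330-69666992, covered 243 and 663 bp in the OPC libraries. The shared region chr18:69529140-69529728, picked after its values were seen, covered 180 and 109 bp in OPCs, against 574 and 589 bp in OLs.

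**Figure D3:**
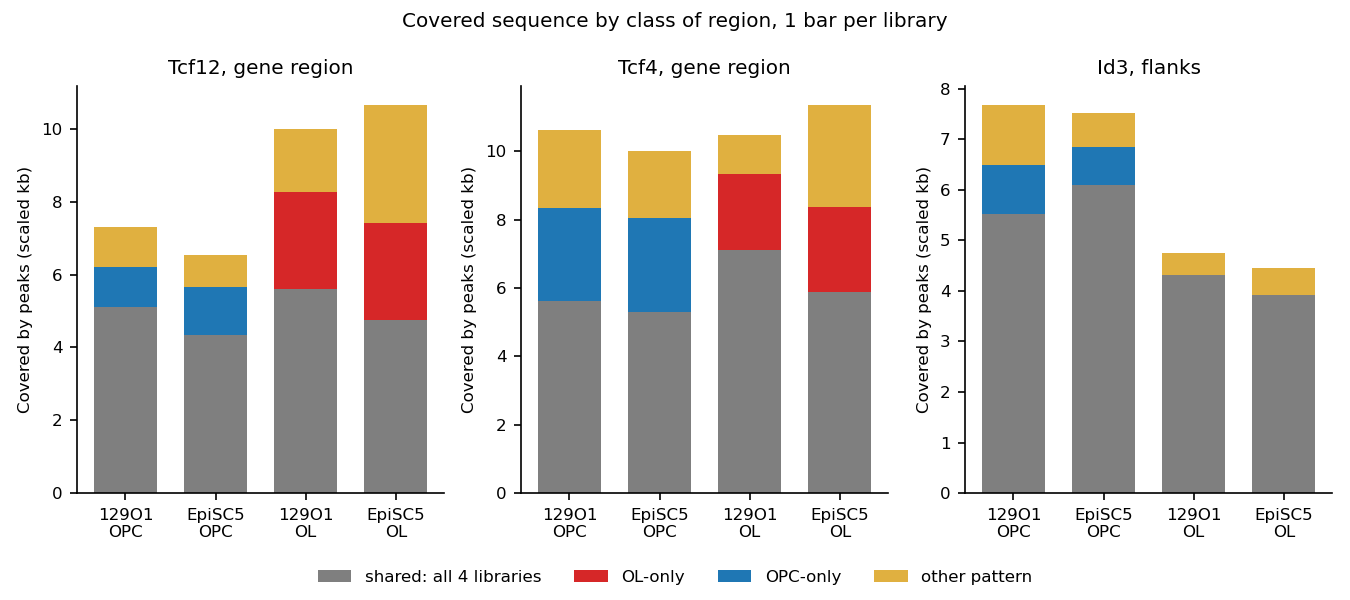
Scaled kb covered in each library by regions of each class, for the gene regions of Tcf12 and Tcf4 and for the Id3 flanks, with 1 stacked bar per library and axes from 0. Tcf12 bars are taller in OLs (10.0 and 10.6 scaled kb) than in OPCs (7.31 and 6.54), Tcf4 bars are of like height with red in place of blue, and the Id3 flanks have no OL-only part and a lower shared part in OLs.

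Tcf3 (chr10:80409541-80433976), whose transcripts give the E proteins E12 and E47, had 1 shared region at its start and few others. Its gene region was covered over 1.83 and 1.88 scaled kb in OPCs, and over 1.79 and 1.45 in OLs. Both OL libraries lay below both OPC libraries, by a margin that was small in 129O1 (log2 -0.03) and larger in EpiSC5 (-0.33). The mean difference of -0.18 ± 0.16 (SE) on the log2(bp + 200) scale did not pass the limma test (adjusted p = 0.506). There were 6 peaks in each OPC library and 3 in each OL library. The start region, chr10:80432888-80434322, covered 1255 and 1354 bp in OPCs, against 1275 and 1216 bp in OLs, so the groups overlapped there. Of its 7 merged regions 1 was OL-only, 2 OPC-only, 1 shared and 3 of other patterns. The OL-only region was chr10:80410718-80411006 (207 and 289 bp). The OPC-only regions were chr10:80413280-80413534 (206 and 255 bp) and chr10:80423690-80423813 (102 and 120 bp).

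Id1 (chr2:152736251-152737410), a short gene that is a classical target of BMP-activated Smads, had less covered sequence in OLs within 2 kb of the gene. Peaks covered 1.08 scaled kb in both OPC libraries, and 0.680 and 0.597 scaled kb in OLs. The groups did not overlap. The means were 1.081 ± 0.0034 scaled kb in OPCs and 0.638 ± 0.0584 in OLs (SD, n = 2 each), and the peaks fell from 4 to 2 in each line. The difference was -0.61 ± 0.20 (SE) on the log2(bp + 200) scale, 1.53-fold lower, with a limma adjusted p of 0.0338. This call rested on few bases: it was lost without the 129O1 OPC library (-0.61, adjusted p = 0.189), the EpiSC5 OPC library (-0.62, 0.184) or the EpiSC5 OL library (-0.54, 0.117), and it was kept in 6 of 15 alternatives. With 10 kb on each side instead of 2 kb the difference was -0.08 (adjusted p = 0.775).

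Each Id1 region showed what made up the difference. The region over the lower-coordinate end of the gene, chr2:152736077-152736717, covered 352 and 627 bp in OPCs, against 327 and 370 bp in OLs. The one before it, chr2:152734946-152735322, covered 373 and 315 bp in OPCs, against 272 and 249 bp in OLs. An OPC-only region inside the gene, chr2:152736914-152737096, covered 115 and 183 bp. These last peaks were among the weakest of their lists, with fold enrichments over background, as the authors' peak caller gave them, of 3.03 and 2.84. The best fold at chr2:152734946-152735322 was 4.86 and 4.95 in OPCs and 7.61 and 7.36 in OLs. At the region over the lower-coordinate end it was 4.08 and 4.65 in OPCs and 4.70 and 4.97 in OLs. At these 2 shared regions the fold was therefore not lower in OLs. In unscaled bp 1 of the 2 was narrower in both OL libraries than in both OPC libraries, and after scaling 0 were. Summed, the 2 regions gave 0.746 and 0.849 scaled kb in OPCs and 0.680 and 0.597 in OLs. One more region, chr2:152739198-152739654, straddled the edge of the gene region. Over its whole width it covered 457 and 299 bp in OPCs, 140 bp in the 129O1 OLs and none in the EpiSC5 OLs. Inside the gene region it gave 0.219 and 0.0649 scaled kb in OPCs and 0 in both OL libraries. Its part in the difference thus depends on where the 2 kb margin ends. Just outside, chr2:152740714-152740940 and chr2:152742839-152743073 were OL-only, with 219 and 157 bp and with 224 and 235 bp. Those 2 regions lie within the 10 kb margin, with which the Id1 difference was near 0.

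**Figure D4:**
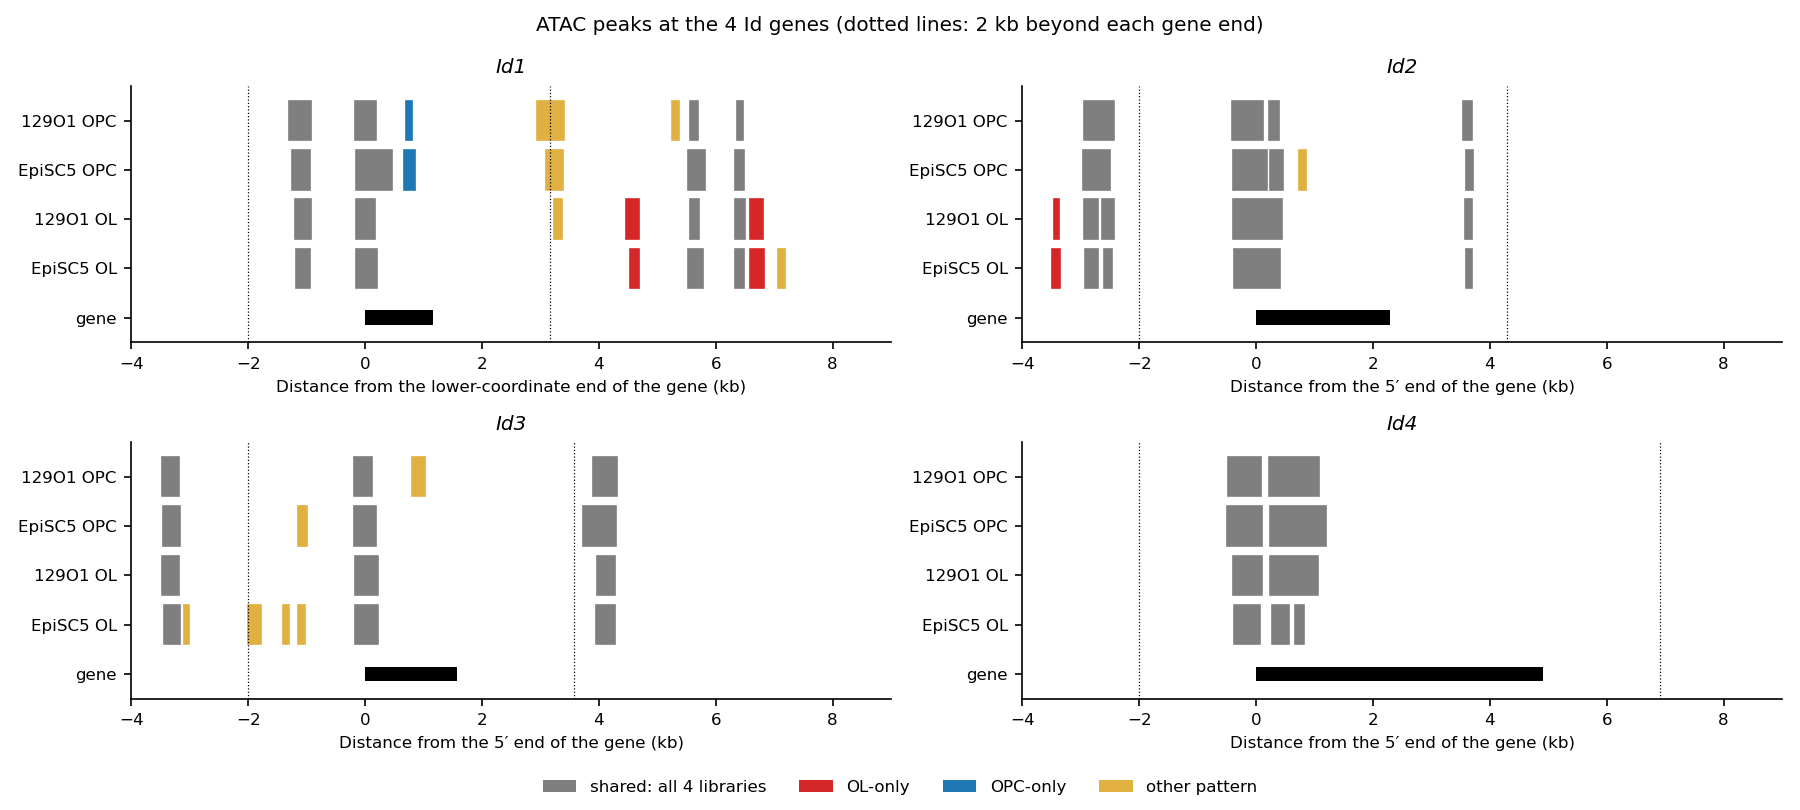
Peaks at the Id genes in each library, by distance in kb from a gene end, with dotted lines 2 kb beyond each end and colours for the class of the merged region. Id1 had an OPC-only region (blue) inside the gene and 2 OL-only regions (red) beyond the dotted line, while the region over the start of Id2, Id3 and Id4 was shared by all 4 libraries (grey).

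Id2, Id3 and Id4 showed no called difference in their gene regions. Id2 (chr12:25093799-25096092) had 0.895 and 0.931 scaled kb in OPCs and 1.06 and 0.866 in OLs, with overlapping groups and a log2 difference of 0.06 ± 0.19 (SE; limma adjusted p = 0.884). Its start region, chr12:25095633-25096498, covered 714 and 800 bp in OPCs, against 825 and 785 bp in OLs. Id3 (chr4:136143822-136145392) had 0.546 and 0.471 scaled kb in OPCs and 0.458 and 0.805 in OLs, with a log2 difference of 0.20 ± 0.28 (SE; limma adjusted p = 0.714). Its start region, chr4:136143633-136144045, covered 314 and 367 bp in OPCs, against 404 and 401 bp in OLs. These peaks were among the weakest of their lists, with best folds of 3.59 and 3.60 in OPCs and 3.14 and 3.13 in OLs. Id4 (chr13:48261116-48266028) had 1.46 and 1.41 scaled kb in OPCs and 1.48 and 0.874 in OLs, with a log2 difference of -0.28 ± 0.19 (SE; limma adjusted p = 0.363). The low value was that of the EpiSC5 OLs, and without the 129O1 OL library Id4 was called lower (-0.60, adjusted p = 0.0451). Both Id4 regions were shared by all 4 libraries: chr13:48260626-48261221 covered 568 and 596 bp in OPCs, against 489 and 453 in OLs, and chr13:48261339-48262308 covered 849 and 963 bp in OPCs, against 815 and 453 in OLs. Both also lie in the interval of the noncoding gene model A330033J07Rik.

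Coverage per kb differed widely among the members. Per kb of gene region, the short Id genes had the most covered sequence: in OPCs Id1 had 209.5 scaled bp per kb, Id4 160.6, Id2 145.0 and Id3 91.3. The E proteins had 65.3 (Tcf3), 29.6 (Tcf4) and 25.5 (Tcf12). In OLs the order was Id2 (153.4), Id4 (132.0), Id1 (123.7), Id3 (113.4), Tcf3 (56.9), Tcf12 (38.0) and Tcf4 (31.3). Neighbours among the Id genes overlapped between libraries in OLs and did not in OPCs, and Tcf12 and Tcf4 changed places. The part of gene length in this order was not tested. The 4 Id gene regions together held 14 merged regions, 7 of them shared, 1 OPC-only and none OL-only, and the E proteins held 147, of which 30 were shared, 20 OPC-only and 25 OL-only. Over all 7 members the shares were 15.5% OL-only, 13.0% OPC-only and 23.0% shared, beside 16.8%, 8.84% and 26.8% of all 141513 regions in gene regions.

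In the flanks, the sequence around Id3 lost coverage in OLs. Flanks of 17592 genes were tested in the same way, all 7 members among them, and 1 member was called, beside 19.2% of all flanks (9.20% higher and 10.0% lower in OLs). Of all these calls 47.8% were higher in OLs, and 23.7% with no scaling. The members' median was -0.31 and that of all flanks -0.04. Both OL libraries lay above both OPC libraries for 1 member, Tcf4 (27.7% of all flanks), and below both for 4 members, Tcf12, Id2, Id3 and Id4 (33.3%). Flanks hold other genes: in the merged coverage beside Id1, 91.2% on the lower-coordinate side lay in the gene regions of H13 and Mcts2 and 65.9% on the other side in those of Cox4i2 and Bcl2l1, and beside Tcf3 85.4% of the lower side lay in those of Plk5, Mex3d, Mbd3 and Uqcr11.

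Peaks covered 7.67 (129O1) and 7.52 (EpiSC5) scaled kb of the Id3 flanks in OPCs, and 4.75 and 4.45 scaled kb in OLs. The groups were far apart, with means of 7.59 ± 0.111 and 4.60 ± 0.213 scaled kb (SD, n = 2 each). The difference was -0.70 ± 0.11 (SE) on the log2(bp + 200) scale, 1.62-fold lower, with a limma adjusted p of 0.00187. It was -0.67 in 129O1 and -0.73 in EpiSC5. Both sides took part: the lower-coordinate side had 4.54 and 4.10 scaled kb in OPCs and 2.57 and 2.65 in OLs, and the higher-coordinate side 3.13 and 3.41 in OPCs and 2.18 and 1.80 in OLs. On the latter side 61.2% of the covered sequence lay in the gene region of E2f2, and with flank sequence in other genes left out the difference was -0.64 (adjusted p = 0.00806). The call was lost when peaks were counted (20 and 17 in OPCs, 15 in each OL library; -0.40, adjusted p = 0.134, with 8.01% of all flanks called), with each peak set to 200 bp around its summit (-0.40, adjusted p = 0.134) and with 100 kb flanks (-0.30, adjusted p = 0.0508). It was kept without each library in turn, with adjusted p from 0.00085 to 0.0125, under the same assumption for the group left with 1 library.

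Most of the scaled kb lost around Id3 came from regions with a peak in all libraries. Its 22 flank regions were 11 shared, 3 OPC-only, no OL-only and 8 of other patterns. Shared regions went from 5.81 to 4.11 scaled kb and OPC-only regions from 0.859 to 0. Of the 11 shared regions 5 were narrower in both OL libraries after scaling and none was wider. Over all shared regions within 52 kb of a protein-coding gene, 30.9% were narrower and 17.6% wider after scaling. In unscaled bp 6 of the 11 were narrower and none wider, beside 51.3% narrower and 13.1% wider over all shared regions in gene regions. The region chr4:136094448-136095470, centred 48.9 kb before the Id3 start and picked after its values were seen, covered 850 and 1023 bp in OPCs, against 179 and 288 bp in OLs. The shared region with the most covered sequence, chr4:136134568-136135852, lay 8.61 kb before the start and covered 1103 and 1285 bp in OPCs, against 670 and 992 bp in OLs. The largest OPC-only region, chr4:136110478-136110914, lay 33.1 kb before the start and covered 437 and 348 bp in OPCs.

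**Figure D5:**
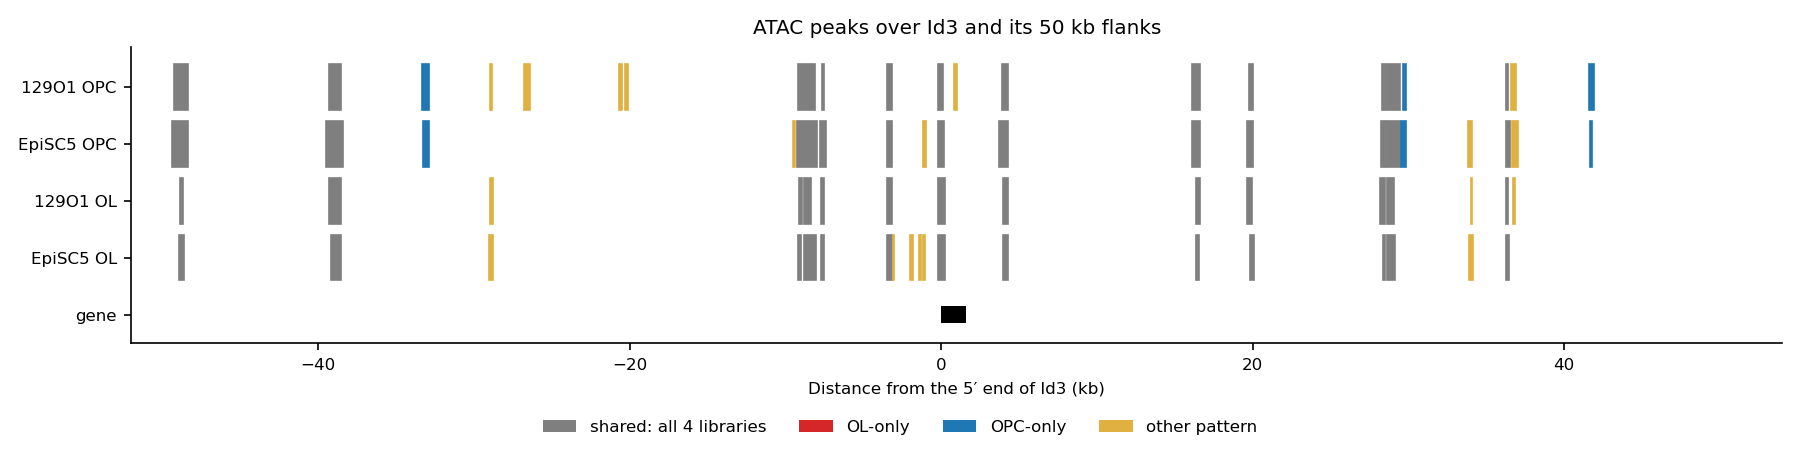
Peaks of each library over Id3 and its flanks, by distance in kb from the Id3 start, coloured by the class of the merged region. The shared regions (grey) keep their places in all 4 libraries, 5 of them narrower in both OL libraries after scaling, 3 regions are OPC-only (blue) and none is OL-only.

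Around the other members no flank passed the limma test. The 109 flank regions of all members were 10.1% OL-only, 10.1% OPC-only and 37.6% shared, beside 15.8%, 9.42% and 25.9% of all regions within 52 kb of a protein-coding gene. The Tcf4 flanks held little covered sequence, 0.249 and 0.577 scaled kb in OPCs and 0.706 and 1.26 in OLs, and the difference of 0.96 ± 0.40 (SE) on the log2(bp + 200) scale had an adjusted p of 0.105. Limma called it once line was fitted as a block (adjusted p = 0.0267, when 31.5% of all flanks were called), and without the EpiSC5 OPC library it was 1.36 (adjusted p = 0.00984). All the coverage on its lower-coordinate side was in OLs, 0.419 and 0.575 scaled kb against 0 in both OPC libraries, and it included the OL-only region chr18:69316796-69317140 (179 and 345 bp). The Tcf12 flanks had 3.36 and 3.60 scaled kb in OPCs and 3.09 and 2.48 in OLs (log2 -0.31, adjusted p = 0.153), opposite in sign to the gene itself. With 100 kb flanks that difference was called (-0.41, adjusted p = 0.0414). The largest Tcf12 flank region, chr9:72132600-72133791, was shared, with 1145 and 1192 bp in OPCs, against 962 and 944 bp in OLs. The Tcf12 flanks also held 2 OL-only regions, the larger chr9:71838536-71838842 (287 and 241 bp), and 2 OPC-only ones, the larger chr9:72156219-72156447 (219 and 223 bp).

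For the remaining flanks the log2 differences were 0.13 (Id1, limma adjusted p = 0.507), -0.16 (Tcf3, 0.372), -0.33 (Id2, 0.343) and -0.33 (Id4, 0.381). In the Id1 flanks 4 regions were OL-only and 1 OPC-only. The largest OL-only region there, chr2:152694818-152695057 (233 and 231 bp), lay in the interval of H13, and so did the largest shared one, chr2:152705746-152706680. The OPC-only region, chr2:152758480-152758642 (80 and 163 bp), lay in that of Cox4i2. The Tcf3 flanks had 4 OPC-only regions and no OL-only one, and the largest OPC-only region, chr10:80363822-80364036 (175 and 215 bp), lay in that of Plk5. Both kinds of class-specific region were thus present beside Id1, and OPC-only ones alone beside Tcf3. The Id2 flanks had 2 OL-only regions, the larger being chr12:25099456-25099591 (89 and 136 bp), and 1 OPC-only region, chr12:25110364-25110606 (158 and 243 bp). Their largest shared region, chr12:25124372-25124994, lay 28.6 kb before the Id2 start, with 623 and 523 bp in OPCs, against 465 and 484 bp in OLs. The Id4 flanks had neither OL-only nor OPC-only regions, and their largest shared region, chr13:48227727-48228544, covered 683 and 808 bp in OPCs, against 569 and 798 bp in OLs.

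The genes whose 4 values ran most like Tcf12, among 1204 genes of similar mean coverage, were Cdk5rap2, Pkp4 and Hipk2, at distances of 0.043, 0.054 and 0.057 on the centred log2 scale, and 16 genes lay within 0.1. For Id1 they were Tpm4, Ttc30b and Gfm1, at 0.019, 0.022 and 0.032 among 8863 genes, with 39 within 0.1. These distances rest on 4 libraries and are a description.

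Genes that act with E and Id proteins were counted beside the 11.0% of all gene regions called higher in OLs and the 8.63% called lower. Of 40 class II bHLH partners, which pair with E proteins, 14 passed the filter on low values, none was called higher and 2 lower, with a median of -0.32. Twist2 and Twist1, mesenchymal bHLH factors, had 1.47 and 0.698 scaled kb in OPCs against 0 and 0.202 in OLs, and 0.954 and 1.18 against 0.598 and 0.514. Their log2 differences were -2.11 (limma adjusted p = 0.00171) and -0.74 (0.0178). Olig2 had 0.633 and 0.877 scaled kb in OPCs and 0.565 and 0.681 in OLs, with a log2 difference of -0.21 (adjusted p = 0.636). Twist1, Twist2, Id1 and Id3 are also expressed in mesenchymal and vascular cells, and the part of such cells in their differences was not tested. The summed coverage of 6 vascular and mesenchymal marker genes was 8.99 and 9.25 scaled kb in OPCs and 3.73 and 3.43 in OLs, with Cldn5 at 0 in every library.

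Of 18 E protein cofactors, all tested, 1 was called higher and 4 lower (median -0.12). The acetyltransferase Kat2a was higher in OLs (0.706 and 0.520 against 1.03 and 1.16 scaled kb, log2 0.68, limma adjusted p = 0.0259), but its difference was -0.06 with no margin. Lmo1, a LIM-only bridging protein, fell from 4.51 and 4.17 to 1.90 and 1.97 scaled kb (log2 -1.09, adjusted p = 7.12e-05). The corepressors Runx1t1 and Cbfa2t3 had log2 differences of -0.87 (adjusted p = 0.000495) and -0.82 (0.003). Of 18 genes listed as inputs of the Id genes or of Id stability, 2 were called higher and 3 lower (median -0.08). That list also held Cdh1, the gene of the adhesion protein E-cadherin. Bmp4, a ligand that induces Id genes, went from 0.615 and 0.679 scaled kb to 1.34 and 1.05 (log2 0.71, adjusted p = 0.0153), and its receptor gene Bmpr1a had a log2 difference of 0.43 (adjusted p = 0.0426, but 0.0593 once line was fitted as a block, when 20.1% of all gene regions were called). Lower were Smad9, a BMP-activated Smad (log2 -0.88, adjusted p = 0.00122), Smad6, an inhibitory Smad (-0.85, 0.000845), and the ligand Bmp2 (-0.65, 0.0304). Of 13 E-box binding repressors and Hes/Hey genes, 12 were tested, and the Notch target Heyl was called higher (log2 1.25, adjusted p = 0.000765) and Scrt2 lower (-0.74, 0.013), with a median of -0.07. The Heyl call was lost with no scaling (adjusted p = 0.121), with median-of-ratios scaling (0.0523), by number of peaks (0.0686), around summits (0.0708) and with the best 50% of each list (0.0621). The Scrt2 call was lost in 10 of 16 alternatives, among them no margin (-0.45, adjusted p = 0.173), a 10 kb margin (-0.18, 0.564) and the best 50% of each list (-0.09, 0.901).

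Of these 13 named list genes, 6 kept their call without each library in turn, in fits that again leave 1 group with a single library. Over all alternatives that tested the gene, Kat2a was called in 6 of 15, Bmpr1a in 6 of 17, Bmp2 in 7 of 14, Twist1 in 10 of 15 and Bmp4 in 10 of 16. Twist2 was called in 11 of 13, Smad6 and Cbfa2t3 in 14 of 17, Smad9 and Lmo1 in 15 of 17 and Runx1t1 in 16 of 17. The other 7 lost it without at least 1 library. Without the 129O1 OPC library the adjusted p was 0.0839 for Bmp4, 0.344 for Bmp2 and 0.0801 for Scrt2. Without the EpiSC5 OPC library it was 0.229 for Twist1, 0.242 for Kat2a, 0.166 for Bmpr1a, 0.0562 for Bmp2 and 0.0622 for Scrt2. Without the 129O1 OL library it was 0.0513 for Kat2a, 0.14 for Bmp4 and 0.108 for Bmpr1a. The EpiSC5 OL library bore on the most of them, 6 genes. Without it the adjusted p was 0.0609 for Twist1, 0.154 for Kat2a, 0.0686 for Cbfa2t3, 0.225 for Bmpr1a, 0.11 for Bmp2 and 0.118 for Scrt2. No direction changed in these fits.

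The whole lists held 125002 to 152595 peaks covering 35.02 to 44.11 Mb, with median widths of 190 to 237 bp. The stated depth was 100 M reads of 50 bp per sample, and the lists hold no counts, so the depth behind each peak is unknown and no counting interval can be given. The labels were checked against marker genes. Of the 7 oligodendrocyte markers tested 5 were called higher in OLs and none lower, among them Mobp (2.95-fold) and Ugt8a (1.88-fold). Of 6 progenitor markers none was called lower in OLs. Among these 1 was called higher in OLs, Sox10, which is a gene of the whole lineage. The progenitor markers therefore gave no check of the OPC label. Over all gene regions tested, 11.0% were called higher in OLs and 8.63% lower. Some markers of other cells were called lower in OLs. These were 4 of the 5 vascular and mesenchymal genes tested, 3 of 6 astrocyte genes and 2 of 6 neuron genes. The neuron genes had a median log2 difference of -0.03, with sums of 25.2 and 29.2 scaled kb in OPCs and 26.0 and 25.5 in OLs. None of the 3 microglia genes tested was called, and their median was 0.42. The astrocyte sum was 10.7 and 10.9 scaled kb in OPCs and 7.70 and 7.58 in OLs, and Pou5f1, which marks pluripotent cells, had no peak in any library.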

How the data were processed

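The authors deposited 1 peak list per library in mm10 coordinates. Per the submitters' processing notes, the tools included Bowtie2 2.3.2, MACS2, Picard and Trim Galore 0.3.1. The version of MACS2 and its threshold were not given in the sources used here. Each deposited row gives a peak's interval, a score, a fold enrichment over background, p and q as −log10 values and a summit offset, per the file layout of MACS2; the fold and −log10 values are the authors' and were used to describe or rank peaks within a list. There is 1 list per sample and none holds reads, so covered sequence follows the caller's widths and threshold.

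Covered bp in each RefSeq gene interval (GRCm38.p6, the patch release of mm10) and 2 kb on each side, and in 50 kb flanks, were scaled to the mean list total and tested as log2(bp + 200) with limma 3.58.1, run in R 4.3.3 (a two-sided moderated test with a mean-variance trend, Benjamini-Hochberg over all genes with a mean of at least 500 bp); the fold understates changes of low values. Scripts were tested on simulated data. The named genes were the 7 members, up to 3 members of each list per direction, the largest region of each class, and 3 genes most like Tcf12 and Id1. From the lists, 1 bHLH partner and 1 oligodendrocyte marker are not reported here. Members and lists were chosen with earlier results of these data known. Libraries of a line share a cell line, and their deviations from the group means correlated (0.287 over gene regions and 0.252 over flanks), so the line served as a block in an alternative. Other alternatives changed the scaling, pseudocount, filter, peak width, threshold, margin, flank length and libraries. Exon and intron structure was not used here.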

Additional observations from a re-analysis of the deposited data

Results flagged for a closer look

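The difference between OLs and OPCs had opposite signs in the 2 cell lines for 4 of the 7 gene regions, which is also true of 25.5% of all gene regions tested. Each is given as the log2 difference in EpiSC5 minus that in 129O1, with 1 library per line and cell type, and the difference was not tested. For Tcf4 it was 0.199 (0.18 in EpiSC5 and -0.02 in 129O1). For Id2 it was -0.292 (-0.08 and 0.21). For Id3 it was 0.764 (0.58 and -0.18), where the EpiSC5 OL library had 4 peaks and the 129O1 OL library 1. For Id4 it was -0.598 (-0.58 and 0.02), where the shared region inside the gene covered 453 bp in the EpiSC5 OLs and 815 bp in the 129O1 OLs.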

How the results depend on the processing

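Gene regions called numbered 2857. There were 583 with no scaling, 771 by number of peaks, 742 with 200 bp around summits, 1631 with the best 50% of each list, and 1869 to 2295 without each library in turn. Flanks called numbered 3384, with 1978, 1435, 1387 and 1883 under the same settings, 2032 outside other genes, 1145 to 3409 without each library, and 5548 with the replicate block. The block called Tcf4 in the flanks and changed no other member's call. Of calls in gene regions 56.1% were higher in OLs, and 33.8% with no scaling, and in flanks 47.8% and 23.7%. No scaling moved the median from -0.02 to -0.13 in gene regions and from -0.04 to -0.15 in flanks. Members called in gene regions (2) numbered 0 with no scaling, by number of peaks and around summits. They numbered 1 with no filter, a 1000 bp filter, the best 50%, no margin and a 10 kb margin, and 1 to 3 without each library. The 1000 bp filter and the fit with no margin left Id1 untested. Members called in flanks (1) numbered 0 around summits, 2 with the replicate block and 1 to 2 without each library. By number of peaks the 1 flank called was that of Tcf3 (-0.52, adjusted p = 0.0483). In gene regions, OL-only regions (25) ranged from 28 to 56 and OPC-only regions (21) from 24 to 31 without each library, and the best 50% left 10 OPC-only and 20 shared (37). In flanks, OL-only regions (11) ranged from 12 to 23 and OPC-only regions (11) from 11 to 26, and the best 50% left 7, 6 and 23 shared (41).

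Log2 differences that changed sign, in fits that did not call them, were as follows in gene regions. Tcf4 was -0.0405 with no scaling, -0.14 by number of peaks and -0.15 around summits. Id2 was -0.0392, -0.67 and -0.67 under these, and ranged from -0.0617 to 0.18 without each library. Id3 was -0.029 by number of peaks and -0.19 with a 10 kb margin, and ranged from -0.10 to 0.51 without each library. Id4 was 0.11 by number of peaks and ranged from -0.60 (called) to 0.0423 without each library. Kat2a was -0.0627 with no margin. In flanks, Tcf3 was 0.10 with the best 50%. Tcf12 was 0.16 by number of peaks and 0.16 around summits. Id1 ranged from -0.0025 to 0.26 without each library. Id2 was 0.022 by number of peaks, 0.0221 around summits and 0.12 with 100 kb flanks. The cause was not tested.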
